A study of Mus musculus with 2 samples.

Results

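The cytosolic ribosomal protein genes were taken as the protein-coding genes of the GENCODE M21 annotation of mm10 whose symbols begin with Rpl or Rps and a digit, together with Rplp0, Rplp1, Rplp2 and Rpsa. The S6 kinases, whose symbols begin with Rps6k, and names with -ps, the ending given to pseudogenes, were left out. This rule gave 86 of the 21851 protein-coding genes compared: 46 for proteins of the large subunit, 31 for proteins of the small subunit, 8 paralogs of such genes, and Rps19bp1, which encodes a protein that binds Rps19 and is no part of the ribosome. DNase-seq had been done on the gastrocnemius, a calf muscle, of 2 male B6CASTF1/J mice aged 36 days, with 1 library for each animal. B6CASTF1/J are first-generation hybrids of C57BL/6J and CAST/EiJ. The labels give the 2 animals as biological replicates of 1 group, so no treatment, genotype or age was compared.

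DNase-seq cuts the DNA of isolated nuclei with DNase I and maps the cuts. Cuts gather where DNA is open, as at active promoters, and a short stretch inside such a peak that is cut less than its flanks is called a footprint, often read as the place of a bound protein. The ribosome is built from RNA and a set of proteins needed in near equal numbers, so the genes for these proteins are transcribed in every growing cell. Their mRNAs begin with a C followed by a run of pyrimidines, the 5′ TOP tract, through which the mTOR pathway controls their translation. Many of their introns hold small nucleolar RNAs (snoRNAs), which guide the modification of ribosomal RNA, and their mRNAs have left many intronless processed copies in the genome.

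Each peak carries a value, the authors' signal height, which was compared within a library only, since its scaling is not given. A gene's value here is that of its highest peak within 500 bp of a start site of any of its protein-coding transcripts, and its percentile is its rank among all protein-coding genes with such a promoter peak in that library. The shorter peak lists held 50760 peaks in replicate 1 and 49230 in replicate 2. Of 9 skeletal muscle marker genes, 8 had a promoter peak in both libraries, and of 9 markers of liver, heart, blood and immune cells none had one in either shorter list, with 1 in both longer lists. In tissue the share of nuclei with an open promoter and the degree of opening within a nucleus cannot be told apart.

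The promoters shown first are those of the 2 highest members, Rpl7a and Rplp0, and of Rpl3 beside its muscle paralog Rpl3l. Each runs from 150 bases before the annotated start to 20 bases from it, 5′ to 3′ on the gene's strand, in the RefSeq sequence of GRCm38.p6, which is mm10. Capitals mark bases that lay in a footprint in both libraries.
Rpl7a, chr2:26910614-26910783, + strand: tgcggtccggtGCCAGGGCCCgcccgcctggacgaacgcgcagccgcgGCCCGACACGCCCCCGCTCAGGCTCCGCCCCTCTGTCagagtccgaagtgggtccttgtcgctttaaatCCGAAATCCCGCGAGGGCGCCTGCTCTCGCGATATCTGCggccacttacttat
Rplp0, chr5:115559317-115559486, + strand: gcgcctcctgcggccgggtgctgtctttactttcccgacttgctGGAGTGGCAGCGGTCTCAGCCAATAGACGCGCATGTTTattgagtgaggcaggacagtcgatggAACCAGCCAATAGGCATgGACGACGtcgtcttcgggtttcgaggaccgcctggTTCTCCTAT
Rpl3, chr15:80083387-80083556, - strand: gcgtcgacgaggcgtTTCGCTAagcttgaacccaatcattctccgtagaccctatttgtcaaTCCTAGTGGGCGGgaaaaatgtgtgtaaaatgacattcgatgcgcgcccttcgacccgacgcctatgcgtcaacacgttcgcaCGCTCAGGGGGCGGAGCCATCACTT
Rpl3l, chr17:24727670-24727839, + strand: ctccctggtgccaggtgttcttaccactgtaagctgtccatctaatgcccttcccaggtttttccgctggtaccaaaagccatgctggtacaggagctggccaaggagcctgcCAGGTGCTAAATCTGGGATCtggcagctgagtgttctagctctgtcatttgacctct
The footprints of both libraries shared 86 of these 170 bases at Rpl7a, 71 at Rplp0, 45 at Rpl3 and 20 at Rpl3l. At Rplp0 both copies of CCAAT in the stretch lay in them. At Rpl3 and at Rpl7a 2 copies of GGGCGG or its reverse complement overlapped them, wholly or in part.

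Nearly all members had an open promoter. A promoter peak was present in both libraries at 83 of 86 members (96.5%, exact Clopper-Pearson 95% interval 90.1 to 99.3, counting error only), beside 54.2% of all protein-coding genes. In single libraries the shares of all genes were 55.8% in replicate 1 and 57.1% in replicate 2, with the same 83 members. All 46 large subunit genes and all 31 small subunit genes had one in both (interval for the 77 together, from 95.3%). The 3 members with no promoter peak were the paralogs Rpl10l, Rpl39l and Rps27rt, and no member had a peak in a single library. Rpl10l and Rpl39l are known from the male germ line, and Rps27rt is an intronless copy of Rps27. The longer lists held no promoter peak for them either and gave the same count of 83 members, beside 59% of all genes. At Rpl10l and Rps27rt no base within 500 bp of the start had a q-value under 0.05 in either library, and at Rpl39l 21 bases did, in replicate 2, with a lowest q-value of 0.0347. This count used 1 start per gene. It was also 0 in both libraries at the open members Rpl17 and Rps10, whose highest peaks lay near other starts. Whether reads could be placed uniquely at the 3 paralogs with no promoter peak was not tested.

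The values of the open members spanned 2.15 to 18.5 in replicate 1, with a median of 7.77, and 1.31 to 16.3 in replicate 2, with a median of 5.80. The medians over all open genes were 5.57 and 3.77. In percentiles, the members' median was 66.3 in replicate 1 (quartiles 49.9 and 85.5) and 75.2 in replicate 2 (quartiles 54.9 and 86.5). Thus the group lay in the upper part of the range in both animals but did not fill its top: 26 of the 83 (31.3%) were above the 75th percentile in both libraries, beside 20% of all genes with a peak in both. Below the 25th percentile in both was 1 member, Rpl3l (1.2%), beside 17.8%. Small subunit genes had median percentiles of 70.1 and 77.5, and large subunit genes 65.1 and 70.3, with quartile ranges that overlapped in both libraries.

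**Figure D1:**
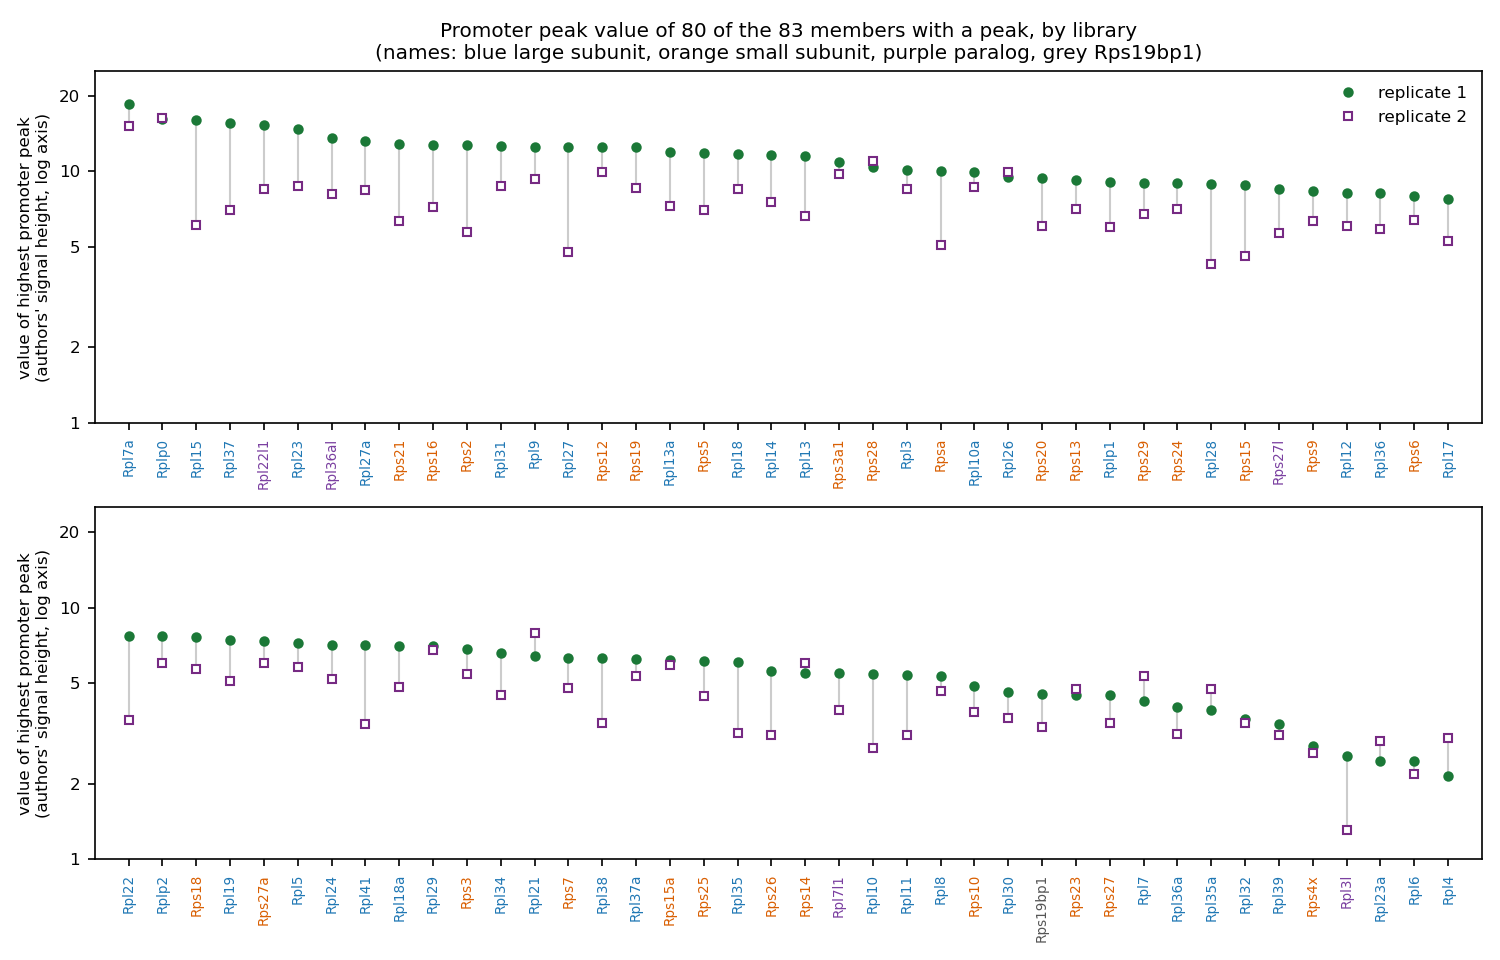
Value of the highest promoter peak (vertical axis, authors' signal height, log scale) of 80 of the 83 members with a peak, ordered by replicate 1 from left to right and from the upper to the lower row. Circles are replicate 1 and squares replicate 2. Rpl7a and Rplp0 lead in both libraries, and Rpl3l has the lowest value of replicate 2.

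The 2 highest members were large subunit genes. Rpl7a, which encodes a protein of the large subunit and hosts 3 snoRNAs, had the value 18.5 in replicate 1 and 15.1 in replicate 2 (percentiles 98.7 and 99.8). Rplp0, whose product forms the base of the ribosomal stalk where translation factors dock, had 16.2 and 16.3 (percentiles 96.6 and 99.9). Rplp0 was thus the highest member in replicate 2 and Rpl7a in replicate 1. Rplp1 and Rplp2, the acidic proteins that pair on that stalk, were lower, with 9.09 and 6.03 for Rplp1 and 7.71 and 6.02 for Rplp2.

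Of the other large subunit genes near the top, Rpl23, whose product lies at the face that joins the small subunit, had 14.8 and 8.73. Rpl27a had 13.2 and 8.42. Rpl31 had 12.6 and 8.74, and Rpl9 had 12.6 and 9.31. The lowest percentile of these 4 in either library was 89.0, that of Rpl9 in replicate 1. Among small subunit genes, Rps12 had 12.5 and 9.96 and Rps19, the gene most often mutated in Diamond-Blackfan anaemia, had 12.5 and 8.62. Rpsa, known also as the laminin receptor, had 10.1 and 5.09. Rps27a, which encodes a fusion of ubiquitin and a small subunit protein, had 7.40 and 6.03. Rps19bp1 lay lower than most, at 4.52 and 3.35.

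At the low end, Rpl4, whose product lines the tunnel through which the new protein leaves, had 2.15 and 3.04 (percentiles 17.4 and 39.2). Rpl23a, which lies at the exit of that tunnel, had 2.45 and 2.95. Rpl6 had 2.45 and 2.18, and Rps4x, the X-linked small subunit gene, had 2.82 and 2.64. These low genes encode core subunits as the highest ones do. The values of Rpl4 are those of a peak centred at -444.5 in replicate 1 and -464.5 in replicate 2, on the side of Zwilch, which is transcribed the other way. The peak over the start of Rpl4 itself had 1.10 and 2.32. Rpl7a also has another coding start, that of Med22, within 500 bp. Its peak was centred at -53.5 in replicate 1 and -33.5 in replicate 2. Which gene a peak belongs to was not tested in either case.

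The order of members was similar in both animals, with differences for single genes. Spearman's rho between the libraries' values was 0.817 over the 83 members, beside 0.904 over all genes with a peak in both. The members share each library, so this is a description. The percentile was higher in replicate 2 for 60 of 83 members (72.3%), beside 51.7% of all genes with a peak in both. Rpl21 differed most, with 6.41 and 7.95 (percentiles 57.1 and 90.9), followed by Rpl7 with 4.27 and 5.38. Rps14 had 5.51 and 6.05, and Rpl35a had 3.92 and 4.75. These 4 moved the same way, up in rank in replicate 2. With 1 library per animal, a difference between animals and one between libraries cannot be told apart.

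**Figure D2:**
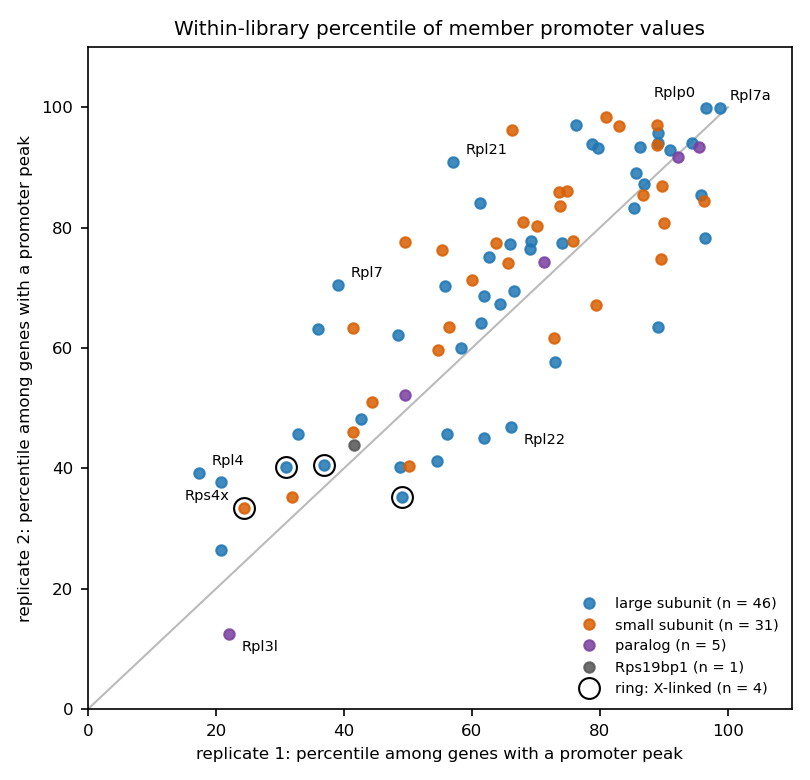
Percentile of each open member among genes with a promoter peak in replicate 1 (horizontal axis) and replicate 2 (vertical axis), coloured by class, with a ring around the X-linked members and a grey line at equal percentiles. Of the 83 points, 60 lie above the line, and the 4 ringed genes lie below the 50th percentile in both libraries.

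Paralogs differed from their parents in both directions. Rpl3l, the form of Rpl3 known from heart and skeletal muscle, had 2.58 in replicate 1 and 1.31 in replicate 2, against 10.1 and 8.49 for Rpl3. Hence in muscle tissue the promoter of the muscle form had a value lower than that of the general form in both libraries. Rpl3l had peaks at 2 start sites, one at 24727820 and one at 24732685 on chr17 (mm10), with values of 2.38 and 2.58 in replicate 1 and 1.28 and 1.31 in replicate 2. The values set against those of Rpl3 are of the peak at 24732685, while the promoter window and the sequence shown are at 24727820. That window, from 250 bases before to 50 after the start, had an observed-to-expected CpG ratio of 0.0893, and that of Rpl3 had 1.13. The skeletal muscle markers, mostly genes of the contractile apparatus, also had low median percentiles. These were 29.2 over 9 genes in replicate 1 and 22.2 over 8 in replicate 2, beside 22.1 and 12.4 for Rpl3l. The highest markers were Mylpf (percentiles 57.9 and 44.4), Ckm (57.3 and 44.1) and Des (55.4 and 40.2).

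Other paralogs stood above their parents. Rpl22l1 had 15.3 and 8.52, and Rpl22, an RNA-binding large subunit protein, 7.74 and 3.56. Rpl36al had 13.6 and 8.12, and its X-linked parent Rpl36a 4.02 and 3.14. Rps27l, a target of p53, had 8.56 and 5.72, and Rps27 4.50 and 3.50. In these 3 pairs the paralog was higher in both libraries. Rpl7l1, with 5.51 and 3.92, was above Rpl7 in replicate 1 and below it in replicate 2. The start of Mgat2 lies within 500 bp of that of Rpl36al, and which of the genes the peak belongs to was not tested.

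The 4 X-linked members had lower values than most autosomal ones. Rpl10, which joins late in the assembly of the large subunit, had 5.45 and 2.78. Rpl39 had 3.44 and 3.11, and Rpl36a and Rps4x are given above. All 4 were below the autosomal members' median in both libraries. Their median was 3.73 in replicate 1 and 2.94 in replicate 2, against 7.99 and 5.93 for the 79 open autosomal members, a ratio of 0.467 and 0.497. Over all open protein-coding genes the same ratio was 0.523 and 0.459, and over those with a CpG ratio of at least 0.6 it was 0.532 and 0.510. The ratio of the members was thus close to that of X-linked genes in general in the same libraries. Males carry 1 X chromosome, and the part of copy number in these values was not tested.

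Sets of genes with related products were open about as often, with lower or higher values. All 78 genes for mitochondrial ribosomal proteins (symbols in Mrpl and Mrps) had a promoter peak in both libraries, and 46 of 50 proteasome subunit genes did. Their median percentiles were 53.8 and 57.0 for the mitochondrial ribosome and 59.6 and 62.1 for the proteasome, both below the 66.3 and 75.2 of the cytosolic ribosome. Of 40 ribosome biogenesis genes, all had a peak in both, with median percentiles of 60.0 and 57.7. Of 32 translation factors, 31 had one, with 75.1 and 72.7. The exception was Eef1a2, the elongation factor known from mature muscle and nerve, which had one in both longer lists, while Eef1a1 had 8.24 and 4.71. The 9 further genes with TOP mRNAs had the highest medians, 88.1 and 85.8. Among these are Tpt1, with values of 14.9 and 9.38, Npm1, a nucleolar chaperone, with 15.95 and 8.60, and Fau, a fusion gene for a small subunit protein, with 14.1 and 8.56. The lowest of the 9 were Rack1, a scaffold protein of the small subunit, with 3.99 and 4.03 (percentiles 36.5 and 53.7), and Btf3, with percentiles of 54.3 and 65.3. None of these differences between sets was tested.

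**Figure D3:**
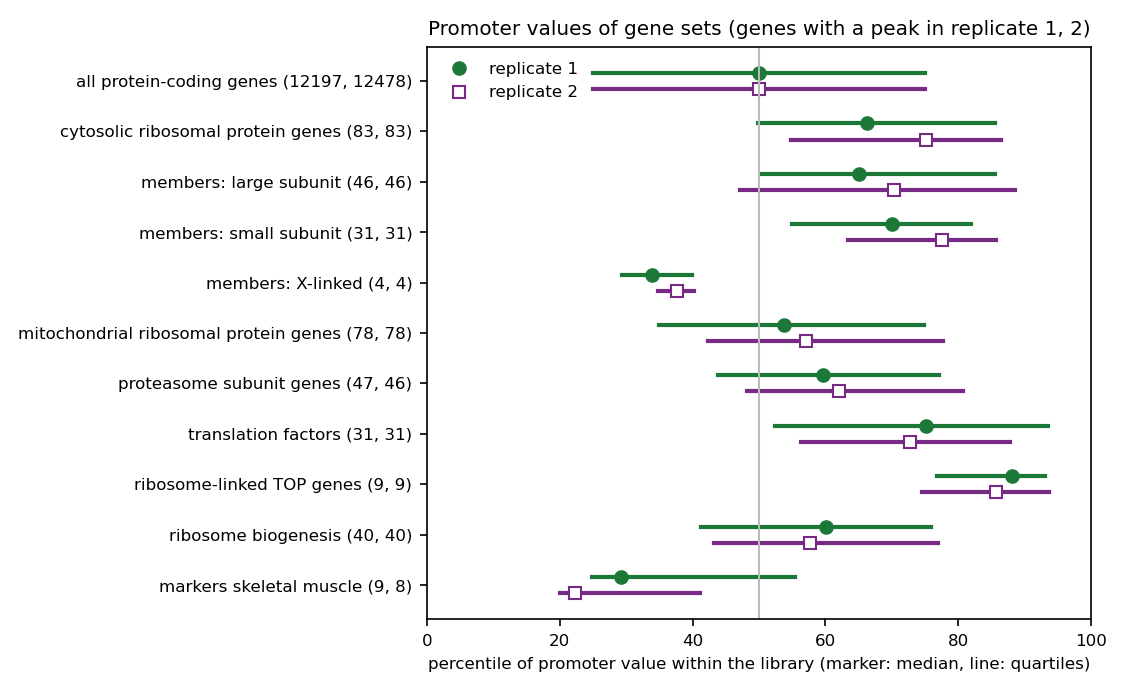
Percentile of the promoter value within each library (horizontal axis) for sets of genes, with the median as a marker and the quartiles as a line, for replicate 1 (circles) and replicate 2 (squares). Numbers in parentheses are the genes with a promoter peak in replicate 1 and 2, and the medians of the cytosolic ribosomal protein genes, 66.3 and 75.2, lie above those of the mitochondrial ones, 53.8 and 57.0.

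Processed copies named for these genes showed almost no peaks. Of 294 processed pseudogenes named for ribosomal protein genes, 292 start over 1000 bp from any protein-coding start, and none of these had a peak within 500 bp in both shorter lists (0 of 292, which allows a share of up to 1.03%, counting error only). Among 9865 other processed pseudogenes placed as far away, 60 did (0.608%). Copies were recognised by name only, so any copy of these genes under another symbol was counted among the others. The limit for the copies thus includes the share of the other processed pseudogenes. Whether reads map uniquely to these copies was not tested.

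The median width of the highest promoter peak was 200 bp in replicate 1 and 260 bp in replicate 2 for members and for all open genes alike. Against genes of similar peak height (10 bins of equal size), 29 members were wider, 17 equal and 37 narrower in replicate 1, and 40, 6 and 37 in replicate 2. Bases within 500 bp of a start with a q-value at or below 0.001 had a median of 471 and 717 for members and 466 and 681 for all open genes. Genes of similar height had medians of 550 and 768, and 53 of 83 members in replicate 1 and 50 in replicate 2 had fewer such bases than these. The widest were Rps19 (680 and 240 bp), Rpl30 (200 and 680 bp), Rps18 (280 and 540 bp), Rps21 (360 and 420 bp) and Rpl10 (220 and 540 bp). Only Rps21 was over 300 bp in both libraries among these 5. The widest peak of Rps19 overlaps a shorter one of 420 bp in the same list, and that of Rpl30 one of 500 bp. The narrowest were Rpl36 (160 and 100 bp), Rps25 (200 and 100 bp), Rpsa (200 and 120 bp), Rpl23a (219 and 120 bp) and Rps26 (160 and 180 bp). More than 1 promoter peak in both libraries was found at 14 of 83 members (16.9%), beside 22.4%. The highest peaks of both libraries overlapped at 81 of 83 (97.6%), beside 95.1%, and the exceptions were Rps25 and Rps26, where the highest peaks of the libraries lay at different places.

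Footprints were found in the promoter peak of both libraries at 82 of 83 members (98.8%), beside 97.4% of all genes with a peak in both. A footprint shared by both libraries was found at 81 (97.6%), beside 92.5%. Members had 3.82 ± 1.74 footprints per peak in replicate 1 and 6.12 ± 2.41 in replicate 2 (SD over 83 genes), and all open genes had 3.61 ± 1.82 and 5.46 ± 2.81. Genes of similar height had means of 4.13 and 5.95. Against these, 28 members had more footprints and 55 fewer in replicate 1, with a median difference of -0.476. In replicate 2, 44 had more and 39 fewer, with a median difference of 0.00242. By the lower count of both libraries the most footprints were at Rps18, with 8 and 15, followed by Rpl15 with 9 and 7, Rpl27 with 8 and 7, Rps12 with 7 and 8, and Rps21 with 7 and 8. Rpl32 had none in replicate 1 and 8 in replicate 2. At Rpl23a the 1 footprint of replicate 1 and the 3 of replicate 2 did not overlap.

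Footprints of members were more frequent after the annotated start site than those of other genes, which were not matched for peak height here. From the start to 99 bases after it, an average base lay in a footprint at 15.0% of members in replicate 1 and 25.05% in replicate 2, against 11.05% and 18.6% of other genes with a peak in both. From 100 to 250 bases after it the shares were 4.02% and 16.1%, against 2.61% and 9.30%. Before the start, from -100 to -1, they were 24.4% and 31.3%, against 21.2% and 26.6%. The members' highest share in replicate 2 was 44.6%, at position 13 after the start, where other genes had 23.1% and where members in replicate 1 had 20.5%. In replicate 1 the highest share was 31.3%, at position -55. Thus the position of the highest share differed between the libraries. Of 66 members matched to a RefSeq start, 15 had it at the same base, so these positions are approximate. The parts of peak height and of inexact starts in these differences were not tested.

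**Figure D4:**
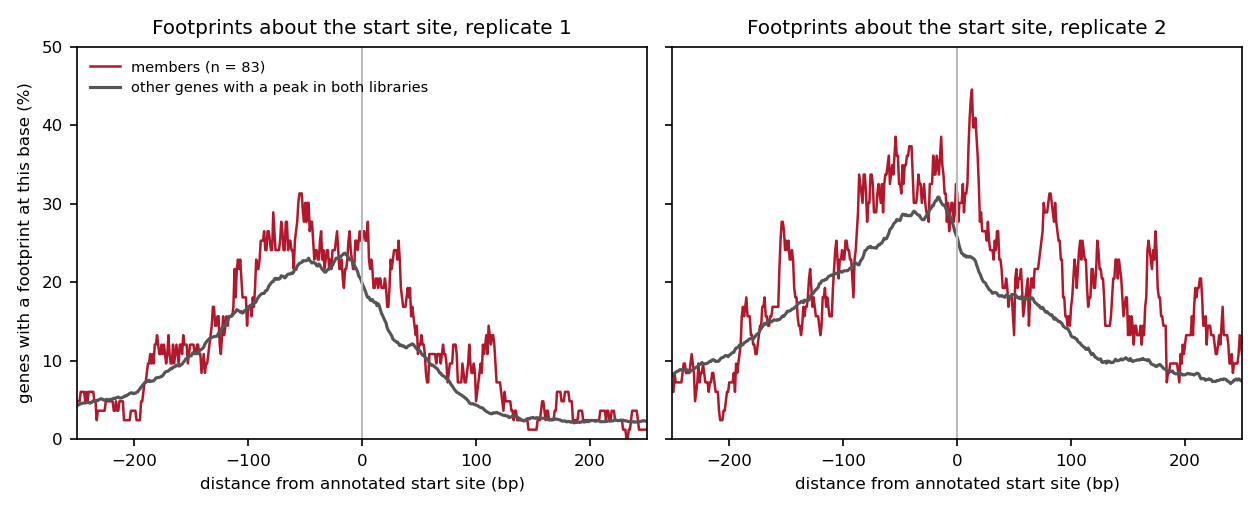
Share of genes with a footprint at each base (vertical axis, percent) by distance from the annotated start site (horizontal axis, bp, positive into the gene), for the 83 open members (red) and other genes with a promoter peak in both libraries (grey), replicate 1 on the left and replicate 2 on the right. In replicate 2 the members' line peaks at 44.6%, 13 bases after the start.

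A run of at least 8 C and T near the start, a measure chosen after the data were seen, was more frequent among members than among all genes. The starts shown next run from -30 to 29, with the longest run of C and T that touches this span in capitals, for the members with some of the longest runs and for Rpl4, the lowest core gene of replicate 1.
Rps24, chr14:24490688-24490747, + strand: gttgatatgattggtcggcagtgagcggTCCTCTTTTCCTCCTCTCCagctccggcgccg
Rpl26, chr11:68901553-68901612, + strand: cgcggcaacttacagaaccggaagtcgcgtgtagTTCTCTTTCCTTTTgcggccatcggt
Rpl4, chr9:64173345-64173404, + strand: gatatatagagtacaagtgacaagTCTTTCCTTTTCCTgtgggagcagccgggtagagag
A run of at least 8 such bases within 30 bases of the start was found at 37 of 86 members (43%), beside 22.4% of all genes, and at 36 of the 83 open members (43.4%), beside 20.3% of genes with a peak in both. The planned measure, a run of at least 5 that includes the annotated start base, was found at 13 (15.1%, interval 8.3 to 24.5). The share of all genes, 9.71%, lies within that interval. The start base itself was a C at 28 (32.6%), beside 17.5%. The annotated start is not exact: of 66 members matched to a RefSeq start, 15 had it at the same base and 45 within 50 bp, with a median distance of 24 bp. Rpl4, with a run of 14, and Rps24, with a run of 19, had runs over the annotated start. The peak over that start had 1.10 and 2.32 at Rpl4, and the highest peak of Rps24 had 8.9998 and 7.08.

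Motifs were searched on both strands from 250 bases before to 50 after the start. The 9 motifs were taken as fixed words. The word of the ETS family of activators was CCGGAAG, and that of YY1, a factor of housekeeping promoters, was AAGATGGC. The GC box, to which Sp1 binds, was searched as GGGCGG, and the CCAAT box is the word of the trimeric factor NFY. The word of CREB, which responds to cyclic AMP, was TGACGTCA. The E-box, to which Myc and related factors bind, was searched as CACGTG, and the TATA box, which places the start of transcription at some promoters, as TATAAA. NRF1, a factor of genes for respiration and growth, and ZBTB33, a zinc finger protein also called Kaiso, complete the set, and the ZBTB33 word is the palindrome in capitals in the 5 sequences that follow. None of these is contained in another, and a base may be counted for more than 1. The ZBTB33 motif had the largest relative difference from other genes. It was found at 6 members (6.98%, interval 2.6 to 14.6), beside 0.618% of all genes and 1.04% of those with a peak in both libraries. Of the 6, 5 are shown with the match in capitals.
Rps6, chr4:86857399-86857428, - strand: cgccggctgtTCTCGCGAGAacttagagcg
Rpl4, chr9:64173125-64173151, + strand: agataatTCTCGCGAGAgttgtgacga
Rpl26, chr11:68901530-68901559, + strand: gctccgagacTCTCGCGAGAtctcgcggca
Rpl10a, chr17:28328524-28328553, + strand: aacgggcaacTCTCGCGAGAacgcgggctc
Rps28, chr17:33824544-33824573, - strand: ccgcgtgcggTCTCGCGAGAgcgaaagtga
The match lay in a footprint of both libraries at 5 of the 6, beside 77.7% of the matches at all genes with a peak in both, and the exception was Rpl4. At Rpl4 the match begins at -243 and lies between its promoter peaks, in neither of them. Of those shown, Rps28 had values of 10.4 and 11.01, Rpl10a 9.96 and 8.66, Rpl26 9.49 and 9.92, and Rps6, the substrate of the S6 kinases, 7.99 and 6.39.

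The ETS motif was found at 24 members (27.9%, interval 18.8 to 38.6), beside 11.2% of all genes and 18.2% of those with a peak in both. Examples in which it lay in a footprint of both libraries are shown, with the motif in capitals.
Rpl31, chr1:39367848-39367876, + strand: ctccccgtgacCCGGAAGttgtacggcta
Rps21, chr2:180257280-180257308, + strand: ctttctttgcaCCGGAAGcggaagttaaa
Of 27 ETS matches at open members, 11 lay in a footprint of both libraries (40.7%, interval 22.4 to 61.2), beside 34.1% at all genes with a peak in both. Open members with the ETS motif had median values of 9.09 and 6.02, and those without it 7.43 and 5.63, with quartile ranges of percentile that overlapped in both libraries.

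The TATA motif was found at 9 members (10.5%), beside 12.5% of all genes and 6.52% of those with a peak in both. Its place differed from that at other genes, a difference that was not tested. Matches at members had a median position of 19.5, after the annotated start, while those at all genes with a peak in both had a median of -133.5. Annotated starts are not exact, with a median distance of 24 bp over the 66 members matched to a RefSeq start. Whether these matches lie before or after the start used in this tissue was not tested. Of the 11 matches at members, 7 lay in a footprint of both libraries (63.6%, interval 30.8 to 89.1), beside 12.7%. These 7 were in 6 genes: Rplp0, Rpl3, Rps2, Rps20, Rps28 and Rpl22l1, which had a pair. Their first bases lay from 17 to 44 bases after the annotated start. Of these genes 5 are shown, with the motif or its reverse complement in capitals.
Rplp0, chr5:115559472-115559501, + strand: gcctggttctccTATAAAaggcacacgcgg
Rpl3, chr15:80083366-80083395, - strand: ccatcacttggcTTTATAtagcctgcactg
Rps20, chr4:3835616-3835642, - strand: atgcgcacgtgcTTTATAagcgcccgg
Rps28, chr17:33824513-33824537, - strand: gtcagagccgacTATAAAaggcatc
Rps2, chr17:24720068-24720097, + strand: ttcttggagcacTATAAAttgtcccttccg

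For Sp1, NRF1 and Myc, whether members lay above or below other genes depended on the genes or window compared, while in each comparison run their share was lower for NFY and higher for YY1 and CREB. Sp1 was found at 43 members (50%), beside 45.3% of all genes and 66.3% of those with a peak in both, and 43 of its 70 matches at open members lay in a footprint of both (61.4%, beside 42%). NFY was found at 26 (30.2%), beside 38.5% and 38.6%, Myc at 9 (10.5%), beside 7.79% and 10.4%, with 3.49% beside 4.77% of all genes from 100 bases before to 50 after the start, and YY1 at 6 (6.98%), beside 3.06% of all genes and 4.68% of those with a peak in both. NRF1 was found at 6 (6.98%), beside 6.11% and 10.5%, and CREB at 5 (5.81%), beside 2.51% and 3.71%. All 7 NRF1 matches lay in a footprint of both libraries (interval from 59%), beside 83.6%. So did 4 of 5 CREB matches (interval 28.4 to 99.5), beside 81.2%. None of the 6 YY1 matches did (interval 0 to 45.9), beside 23.7%. Each of these intervals includes the share at all genes with a peak in both. A match is a stretch of letters and does not show which protein was bound.

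**Figure D5:**
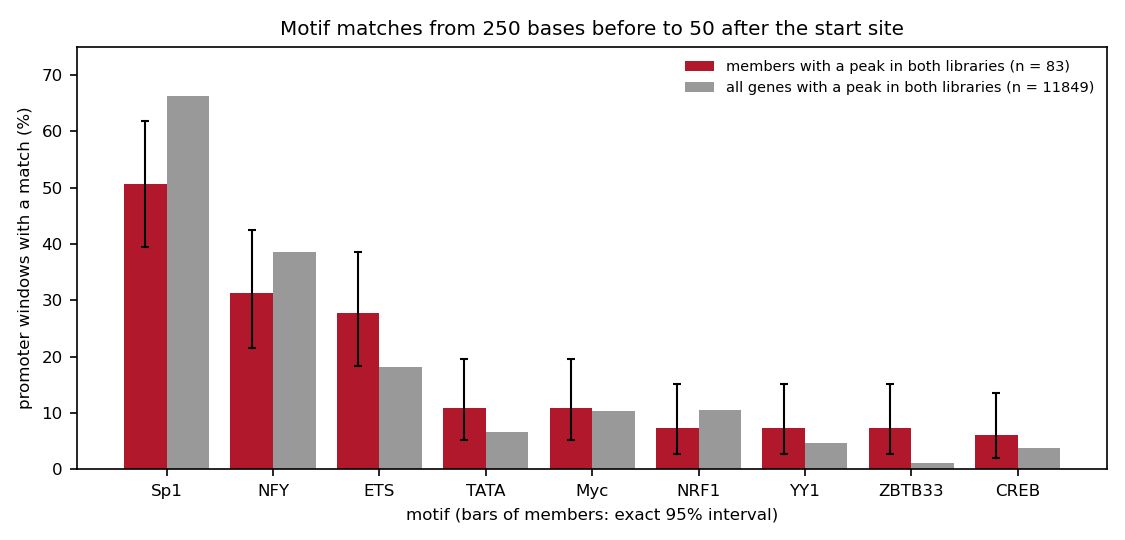
Share of promoter windows with a match to each of 9 motifs (vertical axis, percent) for the 83 members with a peak in both libraries (red, with exact 95% intervals) and for all 11849 genes with a peak in both (grey). ZBTB33 stands at 7.23% against 1.04%, ETS at 27.7% against 18.2% and Sp1 at 50.6% against 66.3%.

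Features of gene structure were also counted. A snoRNA gene on the same strand lay inside 30 members (34.9%), beside 1.26% of all genes, with 5 in Rpl4 and 4 in Rpl13a. Some related sets also had shares above that of all genes, so this was not particular to the members. The share was 33.3% for the 9 further genes with TOP mRNAs, 21.9% for translation factors and 12.5% for ribosome biogenesis. It was 2% for the proteasome and 0% for mitochondrial ribosomal protein genes. Open members with a snoRNA had median values of 8.71 and 6.04, and those without 7.67 and 5.70, with quartile ranges of percentile that overlapped. The start of another protein-coding gene lay within 500 bp of 14 members (16.3%), beside 10.5% of all genes. Most related sets had higher shares: 38.5% for mitochondrial ribosomal protein genes, 27.5% for ribosome biogenesis, 22% for the proteasome and 18.8% for translation factors. The further genes with TOP mRNAs had 11.1%. Examples among the members are Rpl12 (8.21 and 6.07), next to Lrsam1, Rpl15 (15.95 and 6.13), next to Nkiras1, Rpl18 (11.7 and 8.53), next to Sphk2, and Rpl35a, next to Iqcg. The values of these 14 had medians of 7.94 and 6.05, against 7.77 and 5.76 for the other open members. The median CpG ratio of the members' windows was 0.825, beside 0.556 over all genes, with or without a peak. Among related sets it was 0.822 for the mitochondrial ribosome, 0.773 for the proteasome and 0.855 for ribosome biogenesis. Translation factors had 0.873 and the further genes with TOP mRNAs 0.960, so a high ratio was not particular to the members.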

How the data were processed

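The authors deposited, for each library, a shorter and a longer peak list with a signal height per peak, footprints with a score, and q-values per run of bases. Per the labels the files use mm10. Which aligner and callers were used, how the signal was scaled and how CAST/EiJ alleles were treated is not given in the sources used here. The depth in reads is unknown. The deposited footprint score was 0.01 on every line, so footprints were used by position, and the deposited q-value table lists only runs below 0.05. The shorter list was used throughout unless the longer one is named.

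Genes and start sites came from GENCODE M21. The windows for motifs, CpG ratio, pyrimidine runs, footprint profile and q-value counts used 1 start per gene, that of the principal transcript. At some members, such as Rpl17, Rps10 and Rps14, the highest peak lay near another start, outside the motif window. Overlap meant at least 1 bp. Counts are given with exact Clopper-Pearson 95% intervals, which cover counting error only, while the limit for a count of 0 is 3 counts of the total, and no test between groups was made, since there was 1 group of 2 animals. The scripts were tested on simulated data (Python 3.11.15, pandas 2.3.3, scipy 1.17.1, pysam 0.24.0). Named genes are the members without a peak, the 10 highest and 5 lowest by the lower percentile, the 5 widest, narrowest, richest in footprints and most different between libraries, paralogs with their parents, the stalk genes, Rpsa, Rps27a, Rps19bp1, and 5 with another coding start. Genes named beside these (X-linked members, Rpl17, Rps10, motif and sequence examples, genes of related sets) were chosen after their values were seen. Members and lists were chosen with earlier results of these data known. Alternatives changed the peak list, distance, start sites, members, window and overlap. A few genes and 1 sequence are not reported here.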

Additional observations from a re-analysis of the deposited data

How the results depend on the processing

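A promoter peak in both libraries was found at 82 or 83 members under the longer lists, distances of 250 and 1000 bp, the starts of all transcripts and a minimum at the median peak value, and 77 of 78 without the paralogs named with a trailing l or l1 and Rps19bp1. Using 1 library at a time gave median percentiles of 66.3 and 75.2, against 71.6 for the mean of both, widths of 200 and 260 bp and footprint counts of 82 and 83. Ranked among all peaks of the list, the median percentile was 92.7. Myc matches fell from 9 members to 3 in a window from 100 bases before to 50 after the start and to 5 in the highest peak of replicate 1, with shares of 3.49% and 6.02% beside 4.77% and 9.06% of all genes, so that members went from above to below all genes. The comparison with all genes also turned for TATA (10.5% beside 12.5%, then 10.5% beside 6.95% and 9.64% beside 2.65%) and, in the peak of replicate 1 alone, for Sp1 (57.8% beside 68.8%) and NRF1 (9.64% beside 12.1%). In that peak the share is of the genes with a peak there. Alternatives chosen after seeing the data were the run of at least 8 C and T within 30 bases, found at 37 members against 13 for the run over the start, and bases at or below a q-value of 0.001, with a median of 610.5 against a width of 240 bp, beside 588.5 and 240 for all open genes. Of the members' own values under these alternatives, 39 were counted as close to the reported one and 5 as moved. Those counted as close include ZBTB33 and ETS in the highest peak of replicate 1. There ZBTB33 was found at 9 members (10.8%, beside 1.27%) and ETS at 31 (37.3%, beside 18.8%), against 6 and 24 in the window. With 2 animals the spread between animals is poorly known, and the unknown depth leaves weak promoters undetectable.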

Other observations

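The longer peak lists held weak peaks at a few of the processed copies named for these genes, away from coding starts. Rps19-ps10 had 0.801 in replicate 1 and 0.480 in replicate 2, and Rpl21-ps7 had 1.41 and 0.723. These 2 of 292 (0.685%) were the copies with a peak in both longer lists, beside 126 of 9865 other processed pseudogenes (1.28%). Rpl29-ps2, with 5.13 and 2.42, lies within 1000 bp of a protein-coding start and was not counted among them.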
